A study of Drosophila melanogaster with 12 samples.

Results

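R-loop regions at the centromere-proximal ends of the chromosome arms and on chromosome 4 were analyzed in *Drosophila* S2 cells, a cultured cell line of embryonic origin. The S9.6 peaks called without RNH treatment in 4 libraries were joined into merged regions when they shared at least 1 bp, and a region was taken when it started at or beyond position 21000000 on 2L, 22500000 on 3L or 20400000 on X, below 2000000 on 3R, or anywhere on chromosome 4 (dm3 build). These limits use positions only. They gave 650 of the 12155 merged regions (5.35%), of which 272 were on 2L, 152 on 3L, 93 on 3R, 100 on X and 33 on chromosome 4. These 650 are S9.6 regions, called R-loop regions here without the filter for reduced signal after RNH that the paper applied. The rest of 2L, 3L, 3R and X held 5542 regions and served for comparison, and 2R was not compared. Some comparisons also use the 806 regions of the Het sequences (2LHet, 2RHet, 3LHet, 3RHet, XHet and YHet), which are partial assemblies of pericentromeric heterochromatin.

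The libraries were made from cells depleted of dH1 by RNAi, with dsRNA against dH1 (100 μg) added on days 1, 4 and 7 over 8 days, and from control untreated cells, labelled WT, which received no dsRNA. Both conditions had 2 replicates, described as independent biological replicates in the methods. In each replicate an S9.6 library was made from DNA treated with RNH and another from DNA not treated with RNH, which gives 8 peak lists. All cells were of the same line, and dH1 was lowered by RNAi rather than deleted, so any remaining dH1 is part of the dH1-depleted condition.

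The ends of the arm assemblies that face the centromere run into pericentromeric heterochromatin, which is rich in transposable elements and satellite repeats, is marked by HP1a and is mostly silent. Chromosome 4 is the smallest chromosome of *Drosophila* and has many of the marks of heterochromatin along its length, although it carries expressed genes. An R-loop is formed by an RNA paired with a DNA strand and the displaced other strand. The S9.6 antibody binds the DNA:RNA hybrid, and RNH degrades the RNA of the hybrid. dH1, the linker histone of *Drosophila*, is abundant in heterochromatin and takes part in its compaction and silencing.

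The lists give positions and a MACS score for each peak. Read counts are not among their columns. Library depth is therefore unknown, and it affects how many peaks a list holds. The lists without RNH held 9368 and 5526 peaks in dH1-depleted cells and 4016 and 3807 in untreated cells. Their median peak width over all sequences was 228 bp in dH1-depleted replicate 1, against 1233 bp in replicate 2 and 1186.5 bp and 1162 bp in untreated cells. Because the dH1-depleted replicates differ this much in width, shares and ratios were taken within each list. Reads had been kept at all their alignment sites, so the copies of a repeated sequence share reads and their peaks are not independent.

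Without RNH treatment, a larger share of the arm peaks lay in the proximal windows in dH1-depleted cells than in untreated cells. Of the peaks on 2L, 3L, 3R, X and 4, the windows held 508 of 4434 in dH1-depleted replicate 1 (11.5%, Wilson 95% interval 10.6% to 12.4%) and 293 of 2599 in replicate 2 (11.3%, 10.1% to 12.5%). In untreated cells they held 142 of 2130 in replicate 1 (6.67%, 5.68% to 7.81%) and 136 of 1971 in replicate 2 (6.90%, 5.86% to 8.10%). These intervals cover counting error only. Both dH1-depleted libraries were above both untreated libraries, and the difference in log2 odds was 0.82 (1.76-fold), larger than the spread between replicates, whose SD was 0.02 in dH1-depleted cells and 0.04 in untreated cells. By exact permutation of the libraries (2-sided), *p* was 0.33, and no smaller *p* is possible with 2 against 2. The share was nearly the same in both dH1-depleted lists, although the widths of their peaks differ.

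In number, 2.78 times as many proximal peaks were called in dH1-depleted as in untreated cells (log2 difference 1.47, exact permutation *p* = 0.33, 2-sided). This number is not corrected for depth. In base pairs the peaks covered 174199 bp and 581285 bp of the windows in dH1-depleted replicates 1 and 2, in front of 320562 bp and 302784 bp in untreated cells. The untreated values thus lie between the dH1-depleted ones, and the log2 difference in base pairs was 0.03.

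The windows were compared by the density of peaks, in peaks per Mb, over that of the rest of 2L, 3L, 3R and X in the same list. At the 2L end this ratio reached 2.60 in replicate 1 and 2.34 in replicate 2 of dH1-depleted cells, and 1.46 in both untreated replicates. The 2L end was the window of highest density in each of the 4 lists without RNH. At the 3L end the ratio was 1.26 and 1.52 in dH1-depleted cells and only 0.51 and 0.60 in untreated cells, so this window was denser than the rest of the arms in one condition and sparser in the other. At the 3R end it was 0.78 and 0.72 in dH1-depleted cells and 0.54 in both untreated replicates. At the X end it was 0.81 and 0.93 in dH1-depleted cells and 0.63 and 0.68 in untreated cells. Both of these windows were sparser than the rest of the arms in all 4 lists. At each of the 4 ends the dH1-depleted libraries were above the untreated ones without overlap. The log2 differences were 1.32 at 3L, 0.76 at 2L, 0.47 at 3R and 0.40 at X (exact permutation *p* = 0.33 for each, 2-sided, the smallest possible value). Whether the difference at 3L is larger than at the other ends was not tested.

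**Figure D1:**
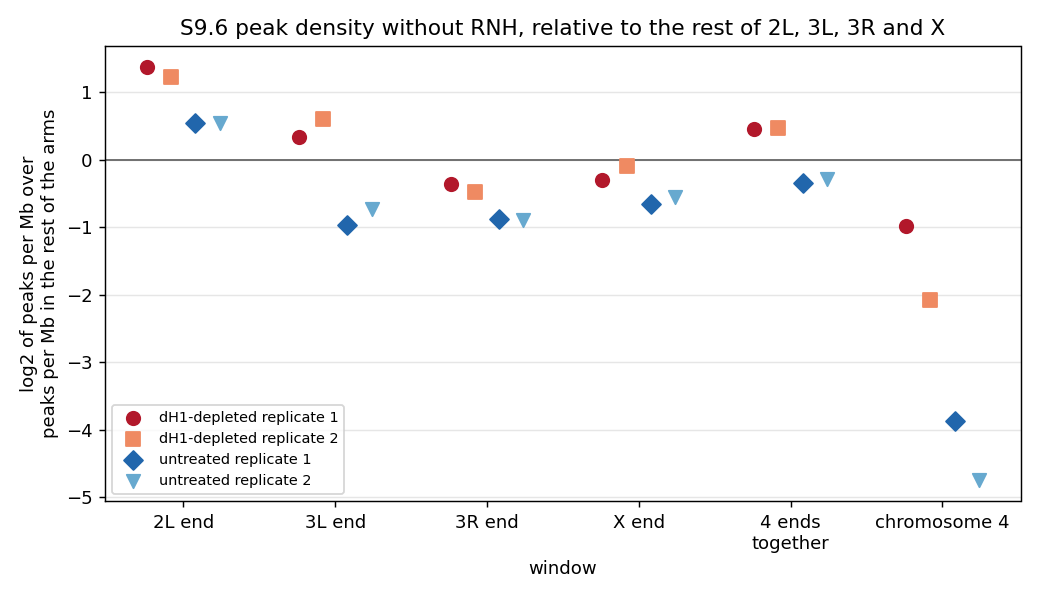
Peaks per Mb in each window over peaks per Mb in the rest of 2L, 3L, 3R and X of the same list (log2, vertical axis), with a point for each of the 4 lists without RNH and the 4 arm ends also joined. The dH1-depleted points are above the untreated points in every window, and all points of chromosome 4 are below 0.

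Over the 4 ends together, the density was 1.36 and 1.38 times that of the rest of the arms in dH1-depleted cells (replicates 1 and 2), and 0.79 and 0.82 times in untreated replicates 1 and 2. The 4 libraries give no common direction (mean log2 ratio 0.07, exact sign-flip test, *p* = 0.75, 2-sided), and the sign of this mean is not stable, since it was -0.13 when the evenly spaced run of regions described next was left out. Between conditions, the log2 ratio was higher by 0.77 in dH1-depleted cells.

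Along the first 8 Mb of the arms, the conditions were farthest apart in the 1 Mb next to the proximal end. In bins of 500 kb, the first bin had 1.24 and 1.27 times the density of the rest of the arms in dH1-depleted cells (replicates 1 and 2), and 0.59 and 0.51 times in untreated replicates 1 and 2. The second bin had 1.44 and 1.34 times in dH1-depleted cells and 0.66 and 0.64 times in untreated cells. In the bin that starts 2 Mb from the end, the ratios were 0.70 and 0.86 in dH1-depleted cells and 0.77 and 0.78 in untreated cells, and the conditions overlapped. The distance is measured to the last peak end of an arm over the 8 lists, or to position 1 on 3R.

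**Figure D2:**
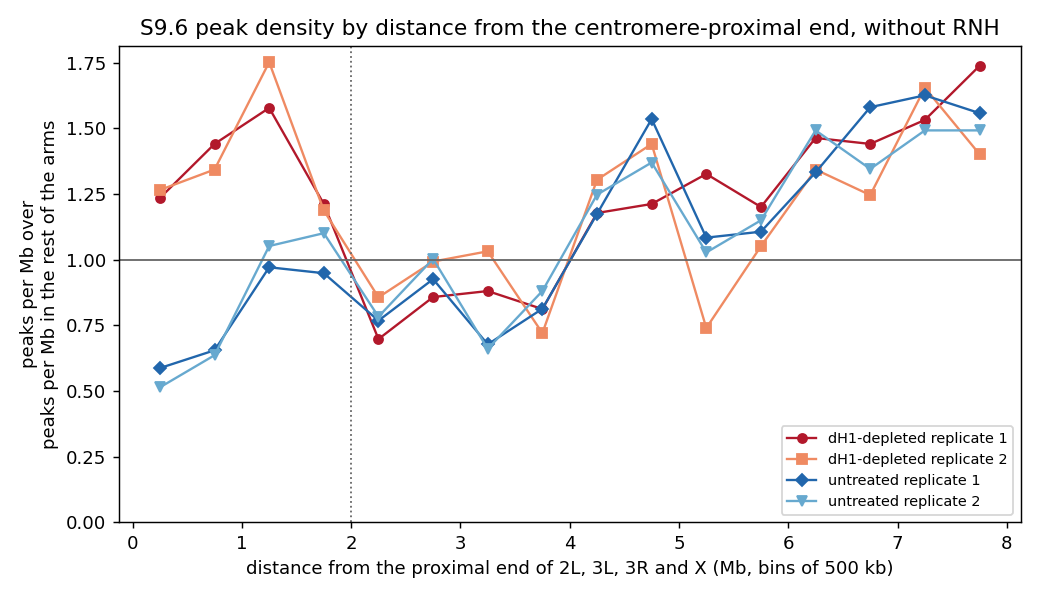
Peaks per Mb in bins of 500 kb over peaks per Mb in the rest of the arms (vertical axis), against the distance from the centromere-proximal end in Mb, summed over 2L, 3L, 3R and X, for the 4 lists without RNH; the dotted line is at 2 Mb, near the limits of the windows. The dH1-depleted and untreated lines are apart in the first bins (1.24 and 1.27 in front of 0.59 and 0.51) and cross one another beyond the windows.

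Chromosome 4 held few peaks in any list. In dH1-depleted cells, 29 peaks were called in replicate 1 and 8 in replicate 2. Untreated cells had 2 and 1. Per Mb, this was 0.50 and 0.24 times the density of the rest of the arms in dH1-depleted cells and 0.07 and 0.04 times in untreated cells. The mean log2 ratio was -2.92, below 0 in 4 of 4 libraries (exact sign-flip test, *p* = 0.13, 2-sided, the smallest value for 4 libraries). The share of arm peaks on chromosome 4 was 0.65% (Wilson 95% interval 0.46% to 0.94%) and 0.31% (0.16% to 0.61%) in dH1-depleted cells and 0.09% (0.03% to 0.34%) and 0.05% (0.01% to 0.29%) in untreated cells, which is 6.53-fold in odds (exact permutation *p* = 0.33, 2-sided). With these numbers the intervals of dH1-depleted replicate 2 and of both untreated libraries overlap. Of the 33 merged regions, 25 came from dH1-depleted replicate 1 alone (75.8%, in front of 41.7% of all merged regions) and 4 from replicate 2 alone (12.1%, in front of 15.1%). The region at chr4:860376-862748 (2373 bp) was the only one called in all 4 lists, with scores of 222.87 and 366.84 in dH1-depleted cells and 117.67 and 166.41 in untreated cells. The regions chr4:39055-40324 and chr4:434548-436408 were called in both dH1-depleted replicates and in no untreated one.

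The MACS score of a peak is its *p*-value on a negative log10 scale, multiplied by 10. It grows with depth, so peaks were ranked within their list and the percentile of the rank was compared. The median percentile of the proximal peaks exceeded that of the rest of the arms by 3.54 and 5.42 points in dH1-depleted cells and by 10.4 and 8.28 points in untreated cells. It was higher in 4 of 4 libraries (mean 6.92 points, exact sign-flip test, *p* = 0.13, 2-sided). Proximal peaks were also wider, with median widths of 245.5 bp and 1408 bp in dH1-depleted cells and 1517 bp and 1496 bp in untreated cells, in front of 218 bp, 1291 bp, 1282.5 bp and 1248 bp in the rest of the arms of the same lists (1.15-fold on average, higher in 4 of 4, exact sign-flip *p* = 0.13, 2-sided). On 2L the percentile difference was 2.38 and 14.1 points in dH1-depleted cells and 29.0 and 25.8 points in untreated cells. In dH1-depleted replicate 1 it was larger on X (20.0 points) and on 3L (7.85 points) than on 2L. Without the evenly spaced run on 2L, it was 3.09 and 0.75 points in dH1-depleted cells and -0.15 and 0.87 points in untreated cells, higher in 3 of 4 libraries (mean 1.14 points, exact sign-flip test, *p* = 0.25, 2-sided). The width ratio without the run was 0.08 on the log2 scale and above 0 in 4 of 4 libraries.

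This run of 24 regions was singled out after the values were seen. It is the longest chain of regions called in all 4 lists without RNH whose starts are at most 15 kb apart, so its calls in 4 of 4 lists come from how it was picked. It lies at chr2L:21416296-21544162 and takes up 24 of the 33 regions called in all 4 lists at the 2L end and of the 62 in all windows. Another region, chr2L:21447060-21448082, lies within these limits and was called in dH1-depleted replicate 2 alone, with a score of 50.27. From start to start the regions were 5039 bp apart in the median. Of the 23 distances, 21 were between 4740 bp and 5438 bp and 1 was 14047 bp. The median width was 4400 bp (1975 bp to 4498 bp), so that most of the sequence between the first and the last region was covered by them.

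The run did not have the same rank in all lists. In dH1-depleted replicate 2 its regions had scores of 1031.88 to 1935.61, which put them between percentiles 98.7 and 99.9 of that list, with a median of 99.3. In dH1-depleted replicate 1 the scores were 56.56 to 321.96 with a median percentile of 86.2, and the regions held 43 narrow peaks with a median width of 421 bp. In untreated replicates 1 and 2 the scores were 102.34 to 614.81 and 113.06 to 539.9, with median percentiles of 88.8 and 88.0. The dH1-depleted replicates thus lie apart from one another in rank, and both untreated replicates lie between them. The run made up 18.9% and 19.8% of the peaks of the 2L end in dH1-depleted cells and 36.9% and 40% in untreated cells. Without it, the density of the 4 ends over the rest of the arms was 1.24 and 1.26 in dH1-depleted cells and 0.65 and 0.68 in untreated cells.

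A gene annotation of dm3 was not used here, so no gene was assigned to any region. In the RefSeq annotation of Release 6, a later build, 2L carries 111 genes of the families His1, His2A, His2B, His3 and His4, which follow one another with no other protein-coding gene between them. These genes encode the core histones and, in the family His1, the linker histone dH1 against which the dsRNA was directed. Whether the run lies at these genes cannot be told from the lists. Since reads were kept at all alignment sites, regions of near-identical sequence share reads, and the number of regions in the run says nothing about how many copies carry the signal.

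**Figure D3:**
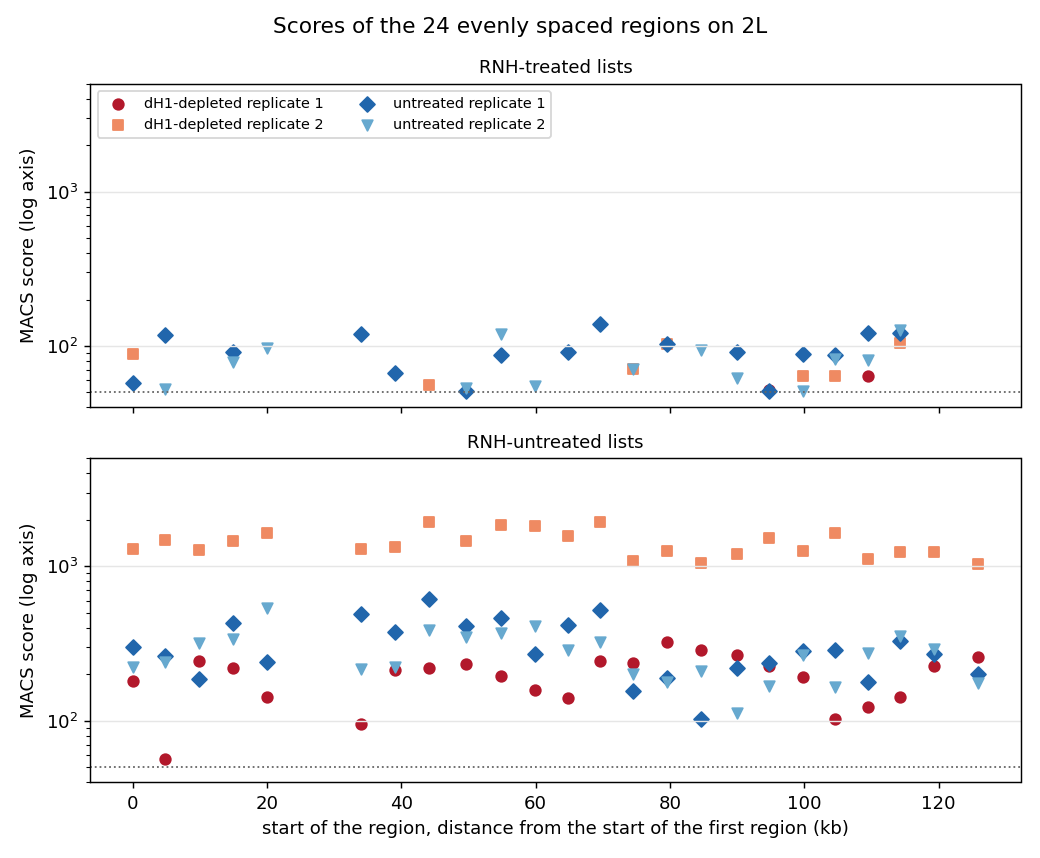
MACS score (log axis) of each of the 24 evenly spaced regions on 2L against the distance of its start from the start of the first region (kb), in the RNH-treated lists (top) and the lists without RNH (bottom); a point is the highest peak of a list in a region, no point means no peak, and the dotted line is the threshold of the lists. In the bottom panel dH1-depleted replicate 2 is above 1000 in all regions, and in the top panel no score exceeds 139.24.

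The merged regions of the windows were sorted by the lists that called them. Both dH1-depleted lists and no untreated list called 23 regions (3.54%), in front of 4.25% of all merged regions and 3.54% of the rest of the arms. Both untreated lists and no dH1-depleted list called 9 regions (1.38%), in front of 2.41% of all merged regions and 3.99% of the rest of the arms. When lists were cut to equal length, at their 3807 peaks of highest score, these numbers were 5 of 340 regions for dH1-depleted cells (1.47%) and 19 for untreated cells (5.59%). All merged regions gave 1.5% and 8.59% at that length, and the rest of the arms 1.29% and 14.5%. A peak in any dH1-depleted list and in no untreated list was found for 476 regions (73.2%), in front of 61.1% of all merged regions, 56.9% of the rest of the arms and 79.4% of the Het sequences. Most of these 476 regions rest on a single list, 315 on dH1-depleted replicate 1 and 138 on dH1-depleted replicate 2. All 4 lists called 62 regions (9.54%), in front of 12.9% of all merged regions and 9.17% of the rest of the arms. Without the evenly spaced run these were 38 of 626 (6.07%), a fall set by how the run was picked. No such chain was left out of the rest of the arms. Seen from the untreated lists, 90.1% and 87.5% of their proximal peaks in replicates 1 and 2 overlapped a peak of dH1-depleted cells, while 75.6% and 77.5% of their peaks in the rest of the arms did so. Regions share libraries and sequence and are not replicates, so no test was made on these shares.

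**Figure D4:**
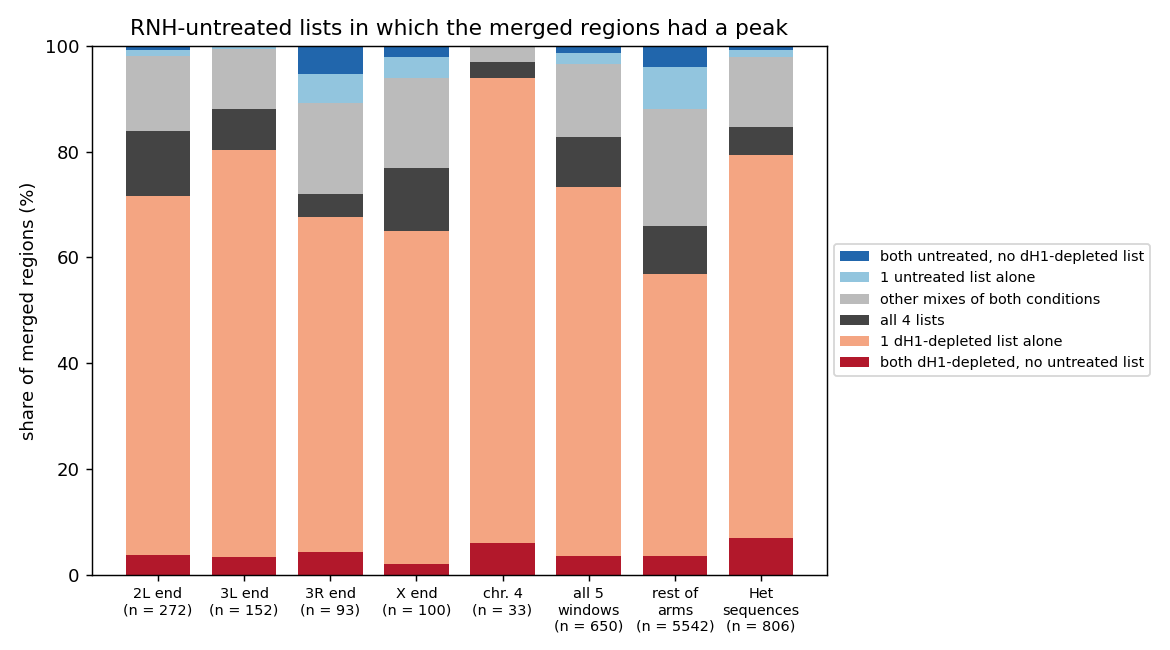
Share of merged regions (%, bars add to 100) by the lists without RNH that called them, for each window, all windows, the rest of the arms and the Het sequences, with the number of regions under each bar. Regions called in both dH1-depleted lists and no untreated list make up 3.54% of the windows and of the rest of the arms, and the classes of untreated cells alone are smaller over all windows than in the rest of the arms, although at the 3R end the class called in both untreated lists only (5.38%) exceeds that of the rest of the arms (3.99%).

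Replicates of dH1-depleted cells shared a lower percentage of their proximal peaks than those of untreated cells, from longer lists. In dH1-depleted replicates 1 and 2, 164 of 508 peaks (32.3%) and 103 of 293 (35.2%) overlapped a peak of the other replicate. In untreated cells these were 103 of 142 (72.5%) and 104 of 136 (76.5%). In the rest of the arms they were 30.9% and 35.9% in dH1-depleted cells and 70.0% and 76.0% in untreated cells, close to the shares in the windows. A peak of either untreated list overlapped 32.3% and 45.1% of the proximal peaks of dH1-depleted replicates 1 and 2. In the rest of the arms this was 36.3% and 60.5%. The dH1-depleted replicates thus overlapped each other no more than the untreated lists, although the latter comparison joins both untreated lists.

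Among those found in dH1-depleted cells alone, the highest lower percentile was found at chr3R:31508-37759, a region of 6252 bp near the proximal end of 3R with scores of 381.92 and 157.38 in replicates 1 and 2. It was followed by chr3L:24383342-24384563 (161.26 and 152.26), chr3R:693123-695135 (96.15 and 145.68) and chr2L:21414837-21416221 (89.99 and 177.32). The last of these ends immediately before the evenly spaced run. The next were chr3L:23414320-23415405 (122.77 and 108.62) and chrX:21413398-21415771 (115.8 and 105.69). None of the 6 had a peak after RNH treatment. Regions called only in untreated cells had low scores. The 4 highest by rank were chr3R:155015-156362 with scores of 77.98 and 85.77 in replicates 1 and 2, chr2L:22705230-22706803 (73.55 and 75.1), chr3R:1615818-1616893 (67.94 and 84.05) and chr3R:732901-734009 (62.65 and 65.78).

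The strongest regions shared by all 4 lists outside 2L were on 3L and X. At chr3L:24432095-24436970 the scores were 638.76 and 1579.77 in dH1-depleted cells and 634.57 and 640.94 in untreated cells, at or above percentile 95.9 in each list. At chrX:22173113-22177104 they were 441.9 and 845.06 in dH1-depleted cells and 553.53 and 554.79 in untreated cells, at or above percentile 94.1. On X, chrX:22022067-22029019 came next (498.64 and 492.03 in dH1-depleted cells, 238.66 and 213.44 in untreated cells). On 3R the 2 strongest were chr3R:893604-897333 (181.5 and 856.62 in dH1-depleted cells, 195.51 and 174.08 in untreated cells) and chr3R:827845-835323 (300.05 and 549.37, in front of 316.46 and 151.98). The X and 3R regions named here had no peak after RNH treatment, while chr3L:24432095-24436970 had scores after RNH of 142.91 in dH1-depleted replicate 2 and of 681.92 and 372.95 in untreated cells. On 2L both regions chosen by rank, chr2L:21485819-21490201 and chr2L:21465921-21469963, belong to the evenly spaced run.

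Over the windows as a whole, fewer peaks were called after RNH treatment in both conditions. After treatment, 15 and 19 proximal peaks were called in dH1-depleted replicates 1 and 2, against 508 and 293 without treatment. In untreated replicates 1 and 2, 27 and 22 were called after treatment, against 142 and 136 without it. The mean log2 ratio of treated over untreated DNA was -3.51, below 0 in 4 of 4 pairs (exact sign-flip test, *p* = 0.13, 2-sided). On chromosome 4 the number of peaks did not fall in untreated cells, but the peaks were not the same ones. Chromosome 4 held 2 and 0 peaks after treatment in dH1-depleted cells, against 29 and 8 without it. In untreated cells it held 2 and 2 after treatment, against 2 and 1 without it. No region of chromosome 4 called in untreated cells without RNH had a peak after RNH, so their peaks after treatment lay at other positions. In the rest of the arms, 39 and 220 peaks were called after treatment in dH1-depleted cells (replicates 1 and 2), and 48 and 38 in untreated replicates 1 and 2. The log2 ratio was less negative in the windows than in the rest of the arms by 1.57 in dH1-depleted replicate 1 and by 2.98 and 2.97 in untreated replicates 1 and 2, while in dH1-depleted replicate 2 the difference was -0.56. The mean difference was 1.74 (exact sign-flip test, *p* = 0.25, 2-sided). It was 1.80 without dH1-depleted replicate 1 and 2.50 without dH1-depleted replicate 2. Without untreated replicate 1 or 2 it was 1.33, and without the evenly spaced run on 2L it was 1.14.

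The proximal peaks that were found again after RNH in untreated cells were mostly those of the evenly spaced run on 2L, with 16 of 20 in replicate 1 and 13 of 17 in replicate 2. Of the proximal peaks without RNH, 3.54% and 4.10% were overlapped by a peak of the RNH-treated list of the same replicate in dH1-depleted cells, and 14.1% and 12.5% in untreated cells (difference -9.47 points, exact permutation *p* = 0.33, 2-sided). Within the run the shares were 6.98% of 43 peaks and 29.2% of 24 peaks in dH1-depleted cells, and 66.7% and 54.2% of 24 peaks each in untreated cells. Outside the run they were 3.23% and 1.86% in dH1-depleted cells and 3.39% and 3.57% in untreated cells, and the difference was -0.94 points. In the rest of the arms they were 1.73% and 2.86% in dH1-depleted cells and 1.31% and 1.20% in untreated cells. The scores of the run after RNH were low, between 51.97 and 104.83 in dH1-depleted cells and between 50.95 and 139.24 in untreated cells. The RNH-treated lists were shorter in dH1-depleted cells (442 and 839 peaks) than in untreated cells (1001 and 903). These lengths and the width and number of peaks of dH1-depleted replicate 1 also enter these shares, and their part was not tested.

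**Figure D5:**
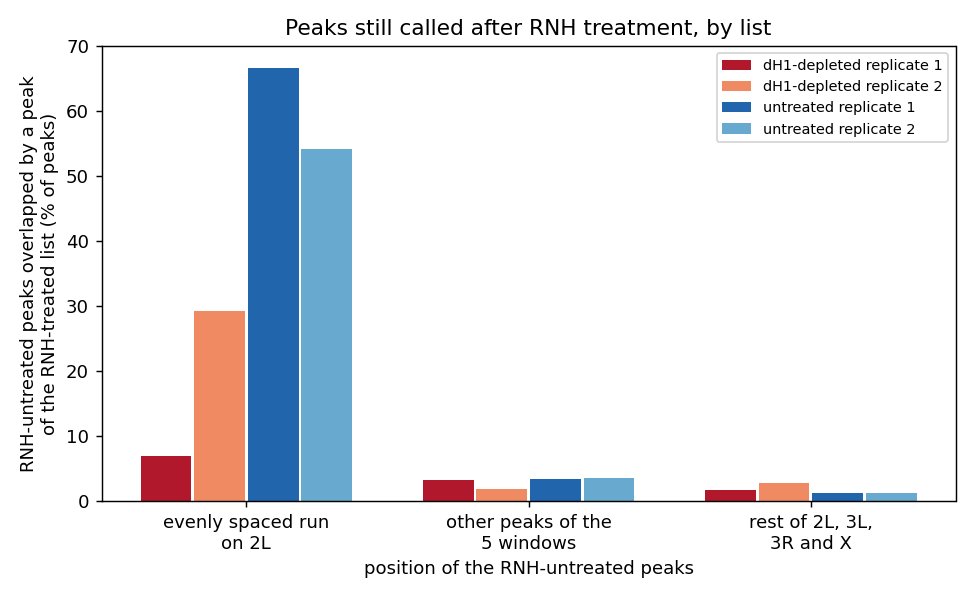
Share of the peaks without RNH that were overlapped by a peak of the RNH-treated list of the same replicate (%, vertical axis), for the evenly spaced run on 2L, the other peaks of the windows and the rest of the arms, with a bar for each replicate. The untreated bars of the run reach 66.7% and 54.2%, and no bar outside the run exceeds 3.57%.

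A peak in any of the 4 RNH-treated lists was found for 47 of the 650 regions (7.23%), in front of 11.3% of all merged regions and 3.00% of the rest of the arms. Outside the run these were 26 of 626 (4.15%). Some of them had high scores after RNH. The widest region of the windows, chr3L:24456521-24464544 (8024 bp), had a peak in all 8 lists. Its scores after RNH were 270.03 and 399.09 in dH1-depleted cells and 2605.46 and 1994.62 in untreated cells, against 578.81 and 355.24 in dH1-depleted cells and 653.54 and 471.55 in untreated cells without RNH. At chr3L:23730086-23731005 a peak was called in all 4 RNH-treated lists, with scores of 383.12 and 556.42 in dH1-depleted cells and 2000.93 and 1443.89 in untreated cells. Without RNH, this region was called only in dH1-depleted replicate 1 (536.56). The region chr4:818045-818690 had a like pattern, with scores after RNH of 305.91 in dH1-depleted replicate 1 and 748.04 and 574.13 in untreated cells, and 494.34 without RNH in dH1-depleted replicate 1 alone. At chrX:21594976-21602575 the scores after RNH were 50.93 in dH1-depleted replicate 1 and 837.9 and 730.31 in untreated cells, against 112.14 and 71.36 in dH1-depleted cells and 219.77 and 144.96 in untreated cells without RNH. Scores of different lists are not on a common scale.

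In width, 50 of the 650 regions (7.69%) exceeded 3 kb, in front of 3.72% in the rest of the arms and 4.34% in the Het sequences. Without the run these were 27 of 626 (4.31%). The other wide regions were chr3L:23817669-23825669 (8001 bp), called in all 4 lists with scores of 312.88 and 288.2 in dH1-depleted cells and 70.84 and 59.19 in untreated cells, and chr3L:23065110-23073079 (7970 bp), called in both dH1-depleted replicates (344.06 and 203.95) and in untreated replicate 2 (67.51). On chromosome 4 no region exceeded 3 kb, and the median width was 224 bp, since most of its regions came from the list of narrow peaks.

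As for the limits of the windows, the regions just inside started 20691 bp from the limit on 2L, 48617 bp on 3L, 13930 bp on 3R and 324 bp on X, and those just outside 29119 bp, 7510 bp, 20286 bp and 20054 bp. Of these 8 regions, 6 were called in a single list of dH1-depleted cells, as were 69.7% of the regions in the windows and 56.8% of all merged regions. The exceptions were the region inside on 3L and the region outside on X, each with peaks in 3 lists of both conditions.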

How the data were processed

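DRIP-seq libraries of S2 cells were grouped by their labels into dH1-depleted and untreated, each with and without RNH. The authors aligned reads with Bowtie 0.12.5 to dm3, keeping all alignment sites up to 10000, removed duplicates and called peaks with MACS 1.4 (threshold 1e-05) per S9.6 library with the input of that replicate as control, without pooling. The authors deposited a score for each peak, which is not normalized between libraries. The labels also list DiffBind and edgeR, which were not used here. The depth is unknown, and no dm3 genome sequence was used.

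The peaks of the 4 lists without RNH were merged (overlap of 1 bp), and shares, densities, widths and score percentiles were computed per list. An arm was taken to end at its last peak over the 8 lists. Conditions were compared by exact permutation of the libraries and pairs by exact sign-flip tests (2-sided, smallest *p* 0.33 and 0.13). A number of 0 was replaced by 0.5 in ratios. Regions named were, by window, the 2 called in all 4 lists with the highest lowest percentile, 6 called only in dH1-depleted and 4 only in untreated cells by their lower percentile, the 5 with peaks in the most RNH-treated lists and the 3 widest. The members and lists were chosen with earlier results of these data known. Others were named after their values were seen: the evenly spaced run and its neighbours, and 2 regions on chromosome 4.

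Alternatives were a score of 100 and above, windows narrower or wider by 500 kb, equal numbers of peaks (the 3807 highest), base pairs, an overlap of 50%, removal of regions with RNH-treated peaks, narrow peaks widened, omission of chromosome 4, of each replicate or of the run, and the replicate block. Calculations used Python 3.11.15, NumPy 2.4.6, SciPy 1.17.1, pandas 2.3.3 and matplotlib 3.10.9, and 7 of 7 checks on simulated data gave the known answer.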

Additional observations from a re-analysis of the deposited data

Results flagged for a closer look

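The density of peaks relative to the rest of the arms had opposite signs in the conditions. Over the 4 arm ends it was above that of the rest in both dH1-depleted libraries and below it in both untreated ones, with a log2 difference of 0.77. At the 3L end alone the signs were opposite too, with a log2 difference of 1.32. On X, the width of proximal peaks over that of the rest of the arms was above 1 in both dH1-depleted libraries (log2 0.43 and 0.03) and below 1 in both untreated libraries (-0.02 and -0.07), a difference of 0.27. Exact permutation of the libraries (2-sided) gave *p* = 0.33 for each of these 3 differences, which is the smallest possible, and no other test was made. The wider value on X came from replicate 1 of dH1-depleted cells, whose peaks are narrow.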

How the results depend on the processing

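Of 163 values recomputed under the alternatives, 144 kept their direction or, for counts, stayed within 1.5 times, 4 changed sign and 15 counts moved further. With this number of libraries no setting could give a *p* under 0.05. The mean density of the 4 arm ends over the rest of the arms had a log2 value of 0.07 in the report, -0.0068 in windows 500 kb wider and -0.13 without the evenly spaced run, and was between -0.061 and 0.21 when a replicate was left out. Omission of dH1-depleted replicate 1 or 2 gave the negative values (-0.054 and -0.061). This mean joins conditions of opposite sign, so its sign depends on how many libraries of each condition are kept.

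Regions called only in dH1-depleted cells were 10 at scores from 100 and 5 with lists of equal length, in place of 23, and 28 to 344 when a replicate was left out (161 without dH1-depleted replicate 1, 344 without dH1-depleted replicate 2, 36 without untreated replicate 1). Regions called only in untreated cells, 9 in the report, were 3 at scores from 100, 5 in narrower windows, 14 in wider windows and 19 with lists of equal length, and 14 to 37 when a replicate was left out (14 without dH1-depleted replicate 1, 37 without dH1-depleted replicate 2, 17 and 14 without untreated replicates 1 and 2). With lists of equal length the regions of dH1-depleted cells alone were thus fewer than those of untreated cells alone. Regions called in all 4 lists were 37 at scores from 100 and 38 without the run, in place of 62. The cause of these moves was not tested, except that omission of a list relaxes the condition itself. Leaving out the run had to lower the number called in all 4 lists, because the run was picked from such regions.

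With the replicate number as a replicate block, the proximal share difference was 0.82 with an exact sign-flip *p* of 0.5, the smallest for 2 pairs, and no call changed. The correlation of the deviations of same-numbered libraries was -0.02 over the calls of 12155 regions. The labels do not say whether a number marks a shared batch or day, and a batch was not tested. Leaving out the run was chosen after seeing the data. It also lowered the score percentile difference to 1.14 points (exact sign-flip *p* = 0.25), with 3 of 4 libraries above 0 in place of 4 of 4, and the difference in overlap after RNH to -0.94 points. The excess of proximal peaks in dH1-depleted cells was 0.43 on the log2 scale with lists of equal length and 0.03 in base pairs.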
